A study of Mus musculus with 6 samples.

Results

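The NRF2 and thioredoxin antioxidant genes described here are 10 genes chosen by name from the gene count table: Nfe2l2, Keap1, Nqo1, Srxn1, Txnrd1, Txnrd2, Txn1, Prdx1, Sod1 and Sod2. Each name matched 1 of the 54532 annotated genes, and all 10 passed the filter on low counts that left 13706 genes for testing. They were measured by poly-A RNA sequencing in livers of mice aged 5 weeks, in 3 libraries labelled Ctrl and 3 labelled Fam210aHKO, in which Fam210a, a gene for a mitochondrial protein, was deleted in hepatocytes. The labels give neither the promoter that drove the deletion nor the alleles that the Ctrl mice carried, and they do not say that each library came from its own animal, so p-values measure the spread between these libraries. The genotype label of Fam210aHKO replicates 2 and 3 names other genes than Fam210a, and the sample titles were used to form the groups.

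NRF2, the product of Nfe2l2, is a transcription factor that KEAP1 holds in the cytosol and hands to a ubiquitin ligase for degradation. Oxidants and electrophiles modify cysteines of KEAP1, NRF2 then escapes degradation, and with small MAF partners it binds antioxidant response elements in the promoters of detoxification and antioxidant genes. Much of this control acts on the protein, so the level of Nfe2l2 mRNA does not measure NRF2 activity. Thioredoxin reductases, which are selenoproteins, pass electrons from NADPH to thioredoxin, and thioredoxin reduces peroxiredoxins, which remove hydrogen peroxide. Superoxide dismutases make that peroxide from superoxide, SOD1 mainly in the cytosol and SOD2 in the mitochondrial matrix.

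Library totals lay between 12.5 and 19.7 M counts (1 M is 1e6), and each of the 10 genes had between 68 and 16272 counts in a library. Levels are given as CPM, counts per 1e6 after scaling by TMM factors, which centre each library on its typical gene. Fam210a itself stood at 119, 136 and 162 CPM in Ctrl and at 31.7, 28.6 and 44.2 CPM in Fam210aHKO, so the gene that the labels name was lower in all 3 knockout libraries. Fam210aHKO replicate 1 stood apart from the rest in Lars2, a gene whose reads can include ribosomal RNA sequence, with 64386 counts against 287 to 555 in the other 5 libraries. Named genes whose call was lost without that library are given with the value, except where the text says that such fits are not given. The mean TMM factor was 0.855 for Ctrl and 1.17 for Fam210aHKO. Scaling by library totals instead shifted the median log2 fold change over all tested genes by 0.45. Changes below are therefore relative to the typical gene. The value with library totals stands beside each gene whose call or direction it alters, except for the genes that ran most closely with Nfe2l2. Among cell markers in the same livers, 6 of 6 lipid-associated macrophage genes and 6 of 6 proliferation genes were called higher, and 5 of 9 measured hepatocyte genes lower. Their summed levels ranged from 81.3 to 124 CPM in Ctrl and from 339 to 521 CPM in Fam210aHKO for the macrophage list, and from 3.74 to 11.8 and from 71.6 to 122 CPM for the proliferation list. Most of the macrophage sum was Spp1 (mean 42.4 CPM in Ctrl and 200 in Fam210aHKO) and Lpl (45.4 and 164), and Spp1 is also in the cholangiocyte list. The hepatocyte list summed to between 156459 and 241011 CPM in Ctrl and between 88330 and 112863 CPM in Fam210aHKO. Most of that sum was Alb, which edgeR did not call with TMM scaling (adjusted p = 0.449). Of the other lists, 2 of 12 Kupffer cell genes, 2 of 9 stellate cell genes and 2 of 5 tested cholangiocyte genes were called higher, 2 of 7 endothelial genes and 1 of 5 tested erythroid genes lower. With TMM scaling and no block, 0 of 2 tested neutrophil and 0 of 3 tested lymphocyte genes were called by edgeR, and 0 by DESeq2 (at an unadjusted p under 0.05, 0 and 1). With library totals 8 Kupffer cell, 6 stellate cell, 4 cholangiocyte, 3 erythroid and 1 neutrophil genes were higher. Lower then were 4 hepatocyte, 1 erythroid and 0 endothelial genes. The 3 erythroid genes higher were Hba-a1, Hbb-bs and Hbb-bt, named after their values were seen. They stood at 112, 90.2 and 10.5 CPM in Fam210aHKO replicate 3, against at most 12.8, 18.8 and 1.31 CPM in the other knockout libraries. DESeq2 called 9 of 9 hepatocyte genes lower. With the replicate number as a block, 7 hepatocyte, 4 endothelial and 1 lymphocyte genes were lower, and 4 stellate cell and 3 cholangiocyte genes higher. Beside these marker counts, edgeR called 14.0% of all tested genes higher and 13.5% lower with TMM scaling. Library totals gave 42.7% and 6.33%, and the block gave 17.8% and 18.0%. The part of these cells in the results below was not tested. In bulk liver RNA, fewer cells of a type and less RNA per cell cannot be told apart.

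The 10 genes did not move together. Srxn1, Nqo1 and Txnrd1 rose in Fam210aHKO livers, Sod1 and Sod2 fell, and Nfe2l2, Keap1, Txnrd2, Txn1 and Prdx1 did not pass the test at an adjusted p under 0.05. The 3 higher calls compare with 14.0% of all tested genes called higher, and the 2 lower calls with 13.5% called lower. The median log2 fold change of the 10 genes was -0.06, against 0.02 over all tested genes. In 4 genes the CPM of every Fam210aHKO library was above that of every Ctrl library, which was so for 22.0% of tested genes. In 4 others it was below, which was so for 20.7%. Only Keap1 and Txnrd2 had overlapping groups among the 10.

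**Figure D1:**
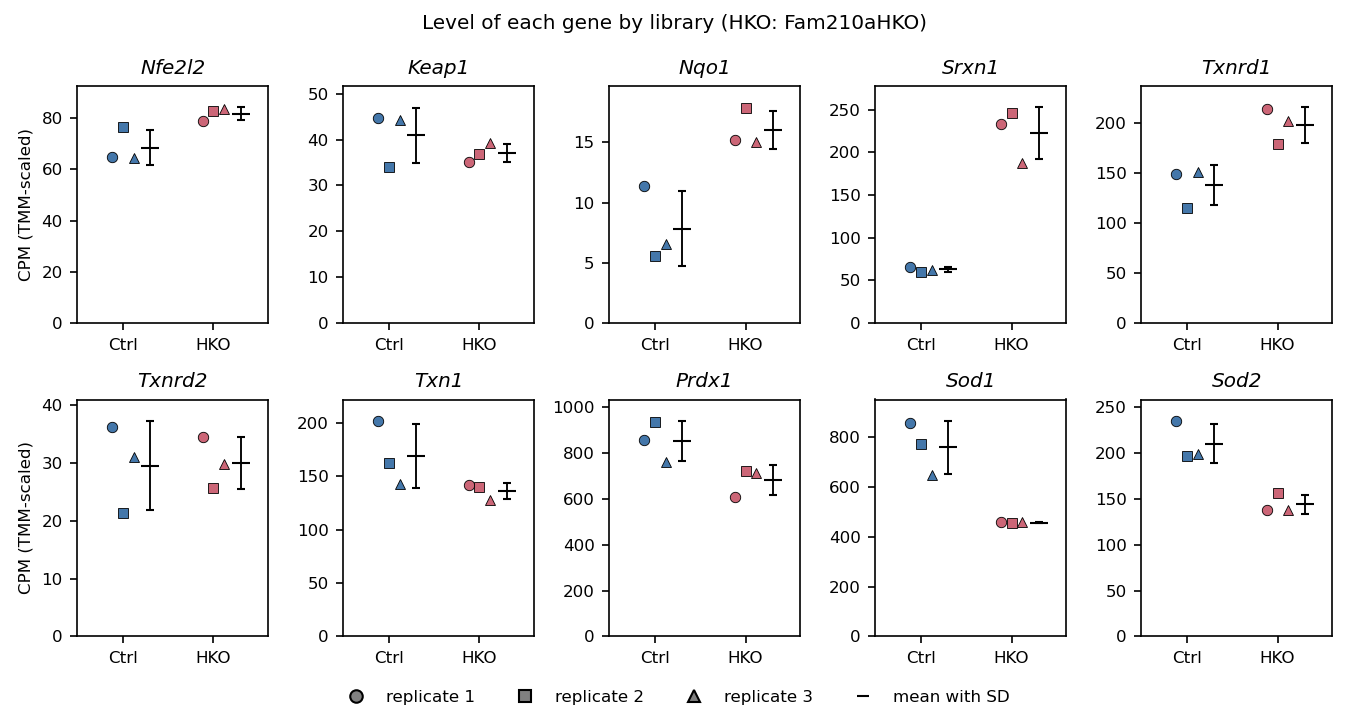
TMM-scaled CPM of each of the 10 genes (y axis, from 0) in the 3 Ctrl and 3 Fam210aHKO libraries (x axis, HKO), 1 point per library with the mean and SD beside it. Srxn1 stands at 188 to 246 CPM in Fam210aHKO against 60.3 to 65.4 in Ctrl, Sod1 is lower in all 3 knockout libraries, and the groups overlap for Keap1 and Txnrd2.

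Per kilobase of gene length the 10 genes span a wide range, which the deposited FPKM values show. In Ctrl, Prdx1 was the most abundant at 409 ± 36 FPKM (mean ± SD, n = 3 here and below), followed by Sod1 at 280 ± 38.1 and Txn1 at 236 ± 42.6 FPKM, and the ranges of Sod1 and Txn1 overlapped. Srxn1, Sod2, Txnrd1 and Nfe2l2 came next with mean levels from 26.4 to 32.6 FPKM, each overlapping the next. Keap1, Txnrd2 and Nqo1 were the lowest, with 12.8 ± 2.07, 9.87 ± 2.67 and 7.40 ± 3.01 FPKM. In Fam210aHKO the order was Prdx1, Txn1, Sod1, Srxn1, Txnrd1, Nfe2l2, Sod2, Nqo1, Keap1 and Txnrd2. There Srxn1, at 110 ± 14.1 FPKM, stood apart from Txnrd1 at 39.1 ± 3.30 FPKM, while Sod2, at 20.1 ± 1.52 FPKM, ranked below Nfe2l2 at 30.2 ± 1.33 FPKM. Of the neighbours in that order, only Keap1 and Txnrd2 overlapped.

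**Figure D2:**
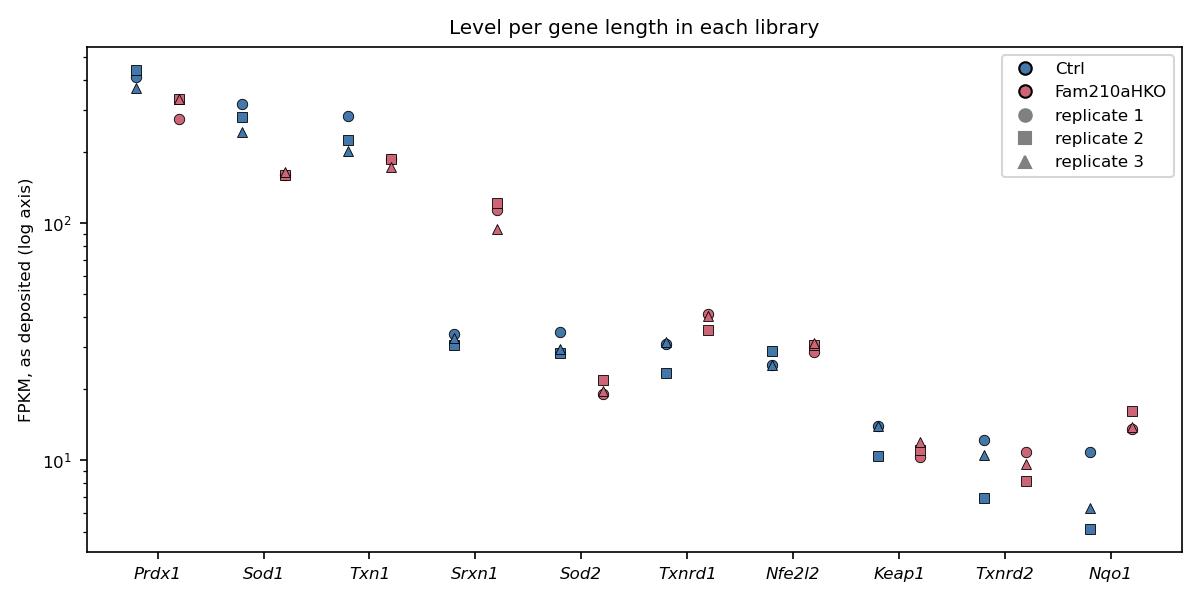
Deposited FPKM of each gene (log y axis) in every library, with genes ordered by their Ctrl mean and 1 point per library. Prdx1, Sod1 and Txn1 form the upper tier, and Srxn1 moves from 32.6 FPKM on average in Ctrl to 110 in Fam210aHKO.

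The regulators were described first. Nfe2l2 (chromosome 2, 75675513 to 75704641, mm10) stood at 64.7, 76.5 and 64.4 CPM in Ctrl and at 79.1, 82.7 and 83.7 CPM in Fam210aHKO. All 3 knockout libraries were above all controls, by a small margin. The fitted log2 fold change of 0.26 (SE 0.135) did not pass (adjusted p = 0.187, edgeR quasi-likelihood test). With library totals it was 0.71, and Nfe2l2 was called higher (adjusted p = 0.00194). Keap1 (chromosome 9, 21229730 to 21239361), the substrate adaptor that binds NRF2, stood at 44.7, 34.0 and 44.2 CPM in Ctrl and at 35.2, 36.8 and 39.3 CPM in Fam210aHKO. The groups overlapped, since Ctrl replicate 2 lay below every knockout library. Its log2 fold change was -0.14 (SE 0.153, adjusted p = 0.529), and with library totals the sign turned to 0.30 without a call (adjusted p = 0.173).

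Among the classical target genes, Srxn1 (chromosome 2, 152105516 to 152111376) showed the largest difference of the 10. It encodes sulfiredoxin, which restores peroxiredoxins whose active-site cysteine has been over-oxidized to a sulfinic acid. Its level was 65.4, 60.3 and 62.6 CPM in Ctrl and 233, 246 and 188 CPM in Fam210aHKO. The lowest knockout library was far above the highest control. The log2 fold change was 1.82 (SE 0.151, adjusted p = 1.72e-05), a 3.54-fold rise, and 3.27% of tested genes had a higher one. The call held in every alternative fit, and without single libraries the log2 fold change ranged from 1.75 to 1.93.

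Nqo1 (chromosome 8, 107388225 to 107403206), the quinone reductase commonly used as a readout of NRF2 activity, was the least abundant of the 10 by CPM. It stood at 11.4, 5.52 and 6.59 CPM in Ctrl and at 15.2, 17.9 and 15 CPM in Fam210aHKO. All knockout libraries were above all controls, and Ctrl replicate 1 was nearest to them. The log2 fold change was 1.04 (SE 0.254, adjusted p = 0.0111), or 2.05-fold. Without Ctrl replicate 3 the call was lost (log2 fold change 0.90, adjusted p = 0.0582), and without single libraries the log2 fold change lay between 0.82 and 1.39.

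Txnrd1 (chromosome 10, 82833951 to 82897712), the cytosolic thioredoxin reductase, stood at 149, 115 and 151 CPM in Ctrl and at 214, 179 and 202 CPM in Fam210aHKO. The groups did not overlap. Its log2 fold change was 0.52 (SE 0.155, adjusted p = 0.0286), or 1.43-fold, and 19.7% of tested genes had a higher one. The call was lost without Ctrl replicate 2 or 3 or without Fam210aHKO replicate 1 or 3 (adjusted p = 0.0874, 0.0517, 0.108 and 0.0556), and also with limma on log2(FPKM + 1) and log2(FPKM + 0.1) (0.0613 and 0.0605).

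The other genes of the thioredoxin chain were not called. Txnrd2 (chromosome 16, 18426384 to 18479073), the mitochondrial reductase, stood at 36.3, 21.3 and 31.1 CPM in Ctrl and at 34.5, 25.6 and 29.9 CPM in Fam210aHKO. The groups overlapped throughout, and in both of them replicate 2 was the lowest (log2 fold change 0.02, SE 0.204, adjusted p = 0.951). Txn1 (chromosome 4, 57943373 to 57956411), cytosolic thioredoxin, stood at 202, 163 and 143 CPM in Ctrl and at 142, 140 and 128 CPM in Fam210aHKO. The knockout libraries lay just below the lowest control, and the log2 fold change of -0.31 (SE 0.157) did not pass (adjusted p = 0.172).

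Prdx1 (chromosome 4, 116685544 to 116700822), a peroxiredoxin that thioredoxin reduces and sulfiredoxin repairs, stood at 856, 937 and 761 CPM in Ctrl and at 607, 723 and 714 CPM in Fam210aHKO. Every knockout library was lower, yet the log2 fold change of -0.32 (SE 0.173) did not pass (adjusted p = 0.196). With library totals the values of Txn1 and Prdx1 both turned to 0.14 (adjusted p = 0.513 and 0.540). A processed pseudogene of Prdx1, Gm21399, shares 98.3% of 597 bases with it and had 74 to 147 counts per library, small beside the 9842 to 16272 counts of Prdx1.

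Both superoxide dismutases fell. Sod1 (chromosome 16, 90220754 to 90226329) stood at 856, 773 and 646 CPM in Ctrl and at 458, 454 and 457 CPM in Fam210aHKO. The 3 knockout libraries lay close together, all below the controls. The log2 fold change was -0.73 (SE 0.167, adjusted p = 0.00776), which leaves 60.2% of the control level. Sod2 (chromosome 17, 13006846 to 13040063) stood at 235, 197 and 199 CPM in Ctrl and at 138, 156 and 138 CPM in Fam210aHKO, again without overlap. Its log2 fold change was -0.55 (SE 0.143, adjusted p = 0.0156), or 68.5% of the control level. Sod1 overlaps Scaf4 on the opposite strand by 650 bases (245 to 604 counts per library) and shares 98.0% of 298 bases with the pseudogene Gm8566 (83 to 131 counts), and Sod2 shares stretches of 200 to 210 bases with 11 other genes, of which Qsox1 had 3382 to 7210 and Cct6a 1256 to 2783 counts, beside 2274 to 3136 for Sod2. The labels and notes do not say whether counting used strand.

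These falls are relative to the typical gene. With library totals the log2 fold changes were -0.28 for Sod1 and -0.10 for Sod2, and neither was called (adjusted p = 0.207 and 0.639). Sod2 also lost its call when Ctrl replicate 1 or Fam210aHKO replicate 1 was left out (adjusted p = 0.0554 and 0.0575), while Sod1 was called without any single library (adjusted p from 0.0097 to 0.0343). With library totals 4 of the 10 genes were called higher (Srxn1, Nqo1, Txnrd1 and Nfe2l2), against 42.7% of all tested genes. None of the 10 was then lower at an adjusted p under 0.05, against 6.33% of tested genes, and none was lower at an unadjusted p under 0.05. With the replicate number as a block the same 5 genes were called as without it, where 17.8% of tested genes were called higher and 18.0% lower.

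**Figure D3:**
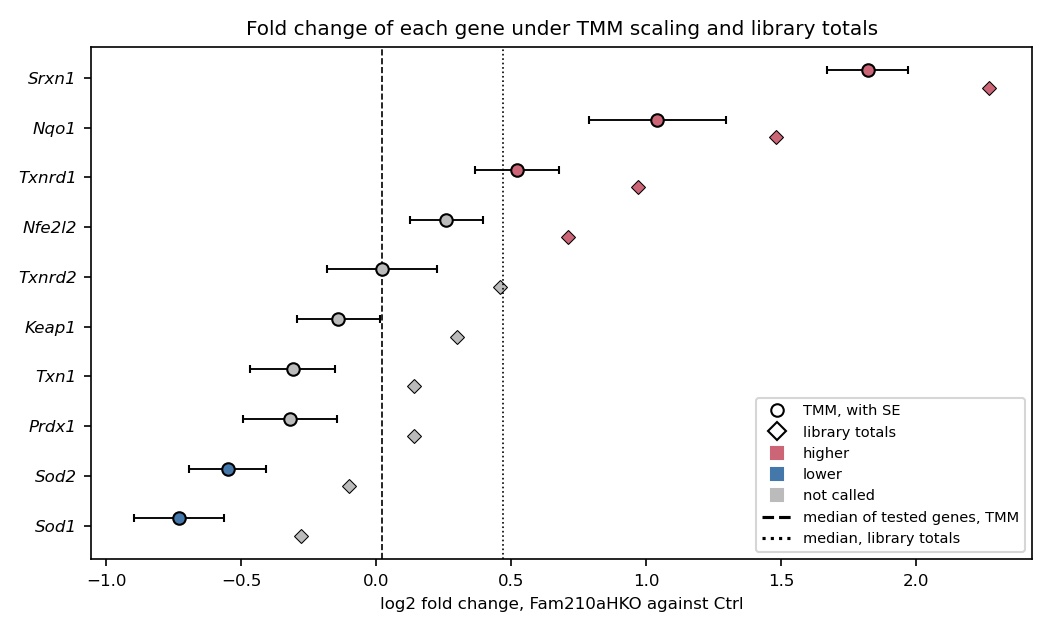
Log2 fold change of Fam210aHKO against Ctrl (x axis) for each gene, with TMM scaling (circles, bars are the SE) and with library totals (diamonds), coloured by call; vertical lines mark the median of all tested genes under each scaling. Srxn1, Nqo1 and Txnrd1 are called higher under both, and Sod1 and Sod2 are called lower with TMM only.

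Ratios of 2 genes within a library do not depend on how libraries are scaled to each other, so 6 pairs were compared on the deposited FPKM values. A ratio shows unequal change of its 2 genes and not which of them changed. With 3 libraries against 3 the smallest p that the exact permutation test can give is 0.10, so none of these differences can pass 0.05. Srxn1 to Prdx1, the repair enzyme against its substrate, was 0.0824, 0.0695 and 0.0888 in Ctrl and 0.414, 0.367 and 0.284 in Fam210aHKO. The groups were far apart, and the geometric mean rose 4.39-fold (two-sided exact permutation p = 0.10, 0.15 after Benjamini-Hochberg adjustment over the 6 pairs).

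Txnrd1 to Txn1, a reductase against its thioredoxin, was 0.109, 0.105 and 0.157 in Ctrl and 0.224, 0.189 and 0.233 in Fam210aHKO. Txnrd1 to Txnrd2, the cytosolic against the mitochondrial reductase, was 2.54, 3.36 and 3.01 in Ctrl and 3.84, 4.34 and 4.19 in Fam210aHKO. Nqo1 to Nfe2l2, a target against its regulator, was 0.430, 0.176 and 0.25 in Ctrl and 0.470, 0.529 and 0.439 in Fam210aHKO, the control with the highest ratio lying just below the knockout libraries. In each of these 3 pairs every knockout library was above every control, with geometric means 1.77, 1.40 and 1.79 times as high (each with an exact permutation p of 0.10 and an adjusted value of 0.15). Without Ctrl replicate 2 the log2 difference of Nqo1 to Nfe2l2 was 0.54 in place of 0.84.

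The remaining pairs overlapped. Sod1 to Sod2 was 9.18, 9.91 and 8.18 in Ctrl and 8.36, 7.32 and 8.37 in Fam210aHKO, a log2 difference of -0.18 (exact permutation p = 0.30, adjusted 0.36). Nfe2l2 to Keap1 was 1.79, 2.78 and 1.80 in Ctrl and 2.78, 2.78 and 2.64 in Fam210aHKO. There Ctrl replicate 2 was as high as the highest knockout libraries (log2 difference 0.39, exact permutation p = 0.40, adjusted 0.40). Without Ctrl replicate 2 the groups did not overlap and the log2 difference was 0.60.

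**Figure D4:**
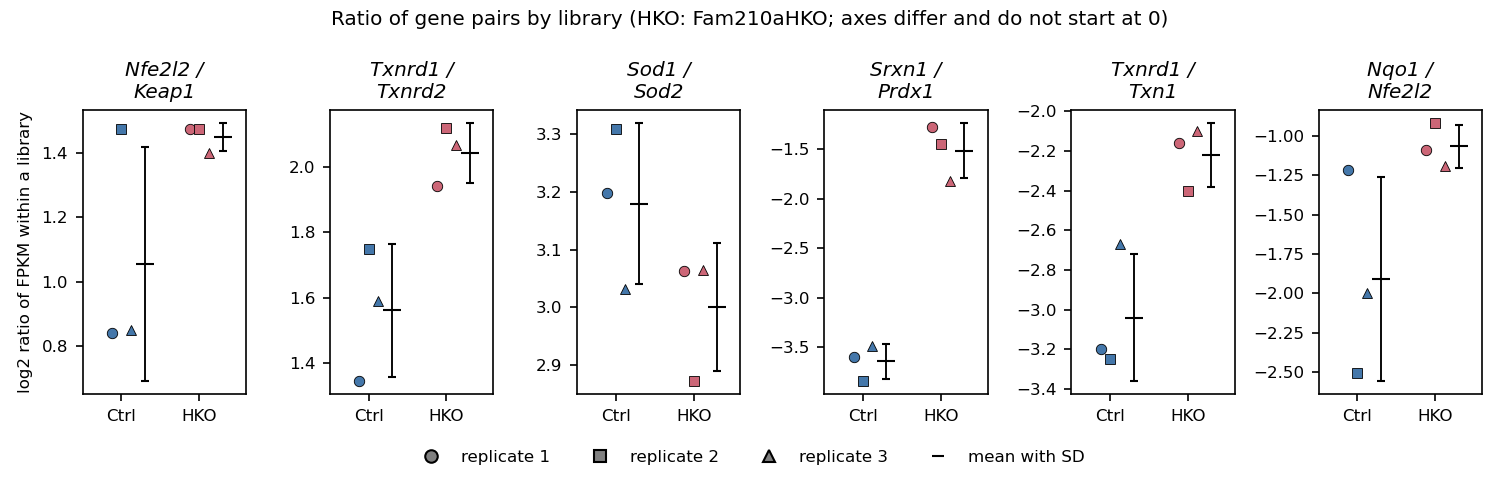
Log2 ratio of the FPKM of 2 genes within each library (y axis, own scale in each panel, not from 0) for 6 pairs in Ctrl and Fam210aHKO (HKO), 1 point per library with the mean and SD. The groups are separate for Txnrd1 to Txnrd2, Srxn1 to Prdx1, Txnrd1 to Txn1 and Nqo1 to Nfe2l2, and overlap for Nfe2l2 to Keap1 and Sod1 to Sod2.

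Promoter sequence was examined because NRF2 acts through a short element. RefSeq windows (GRCm38.p6, the assembly that mm10 names) run from 250 bases before to 50 bases after an annotated start, and 12 windows matched the 10 genes, 3 of them starts of Txnrd1. The core of the antioxidant response element was searched on both strands as TGACNNNGC, and after the data were seen also as TGAGNNNGC, the other letter that the consensus allows. The first was found in 5 of the 12 windows, against 12.4% of all 32851 windows. These belonged to 5 of the 10 genes (Nfe2l2, Srxn1, Prdx1, Txnrd1 and Sod1). The second was found in 2 of the 12 windows, those of Srxn1 and Prdx1, against 17.6% of all windows. The matches before the start are shown because they occur in genes that rose, fell or did not pass, and they are printed 5′ to 3′ on the strand of the gene with the matched 9 bases in capitals and up to 16 bases on each side.

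Srxn1, first matched base 45 bases before the start, chr2:152105463-152105503, plus strand: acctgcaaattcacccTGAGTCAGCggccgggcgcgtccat
Srxn1, 158 bases before the start, chr2:152105350-152105390, plus strand: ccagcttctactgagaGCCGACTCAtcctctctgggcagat
Txnrd1, 92 bases before its second start, chr10:82859098-82859138, plus strand: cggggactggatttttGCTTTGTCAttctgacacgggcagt
Prdx1, 133 bases before the start, chr4:116685450-116685490, plus strand: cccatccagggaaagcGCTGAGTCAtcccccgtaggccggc
Nfe2l2, 240 bases before the start, chr2:75704879-75704913, minus strand: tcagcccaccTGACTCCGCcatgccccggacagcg
Sod1, 56 bases before the start, chr16:90220690-90220730, plus strand: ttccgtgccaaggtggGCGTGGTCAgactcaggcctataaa

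Of the matches printed, that of Srxn1 at 45 bases before the start and that of Prdx1 both hold TGAGTCA, the letters bound by AP-1 as well. Srxn1 rose, Prdx1 did not pass and Sod1 fell, so matches were found in genes of each kind. Further matches lay after the start, 1 of the C form in Srxn1 and 1 of the G form in Prdx1. No window of Nqo1, Keap1, Txnrd2, Txn1 or Sod2 held either form, which says only that these letters are not in the windows searched. TGATGNAA, the composite element of C/EBP and ATF factors, was in none of the 12 windows and in 3.97% of all.

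Other genes under NRF2 were taken from a fixed list of 34, of which 33 were tested and Gpx2 was not. In Fam210aHKO 14 rose, 3 fell and 16 did not pass, beside 14.0% and 13.5% called among all tested genes, and the median log2 fold change was 0.57. With library totals the list had 22 higher and 0 lower (0 also at an unadjusted p under 0.05), and with the replicate block 18 and 5. Over all tested genes library totals gave 42.7% higher and 6.33% lower, and the block 17.8% and 18.0%. The transporter gene Abcc4, which exports conjugates across the basolateral membrane, rose from 2.96, 4.06 and 2.82 CPM to 91.0, 133 and 111 CPM (5.09 log2 units, SE 0.219, adjusted p = 5.27e-07). Pgd, an enzyme of the pentose phosphate pathway that makes NADPH, rose from 28.4, 24.7 and 25.2 CPM to 75.7, 88.8 and 67.2 CPM (1.56, SE 0.154, adjusted p = 4.83e-05). Gstm3, a glutathione transferase with close paralogs that could share its reads, rose from 12.5, 3.57 and 4.30 CPM to 103, 127 and 94.5 CPM (4.0, SE 0.409, adjusted p = 6.02e-05). In these 3 target genes every knockout library was well above every control. The 14 higher calls include the glutathione transferase genes Gsta1, Gsta2, Gstm1, Gstm2, Gstm3 and Gstm4, paralogs that could share reads. Besides these, Abcc4 and Pgd, the higher calls were Hmox1, Slc7a11, Me1, Tkt, Ugdh and Cbr3, named after their values were seen. Their log2 fold changes were 1.08, 4.66, 0.85, 0.57, 0.61 and 2.60. Each was called higher with library totals and with the replicate block. Slc7a11 had 1, 0 and 0 counts in Ctrl and 12, 18 and 18 in Fam210aHKO. For the higher calls other than Abcc4, Pgd and Gstm3, fits without single libraries are not given. Among the 16 that did not pass were Gclc, Gclm and Gsr, named after their values were seen (log2 fold changes -0.13, -0.46 and 0.08). With library totals the values were 0.31, -0.02 and 0.52, and Gsr was called higher (adjusted p = 0.0188). Gclm was called lower with the replicate block (adjusted p = 0.0138).

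The 3 that fell were Idh1, cytosolic isocitrate dehydrogenase and another source of NADPH (log2 fold change -0.73, adjusted p = 0.00341), Gsta3 (-0.74, adjusted p = 0.0140) and Abcc3 (-0.63, adjusted p = 0.0200), the last named after its value was seen. All 3 calls were lost with library totals (adjusted p = 0.160, 0.237 and 0.435), and that of Gsta3 also without Fam210aHKO replicate 2 (0.0732). Abcc3 was not called without Fam210aHKO replicate 1 (0.0621) or 2 (0.0961), so without replicate 2 only Idh1 of the list was lower.

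Of 15 regulators and partners of NRF2, 4 rose and 0 fell (0 lower also at an unadjusted p under 0.05 and by DESeq2), with a median log2 fold change of 0.19, where 14.0% of all tested genes were higher and 13.5% lower. With library totals 8 were higher, against 42.7% of all tested genes. Sqstm1, whose product binds KEAP1 and delivers it to autophagy, rose from 481, 422 and 430 CPM to 1269, 1123 and 938 CPM (1.32 log2 units, SE 0.182, adjusted p = 0.000389). The small MAF gene Mafk rose from 15.2, 13.2 and 16.1 CPM to 28.2, 34.7 and 26.8 CPM (1.01, SE 0.166, adjusted p = 0.00121). Maff, another small MAF gene, rose from 3.04, 0.974 and 1.28 CPM to 8.42, 4.88 and 6.10 CPM (1.89, SE 0.386, adjusted p = 0.00416). The last was Pgam5, a mitochondrial phosphatase that binds KEAP1, named after its value was seen (0.74, adjusted p = 0.0168). Pgam5 was not called without Ctrl replicate 1 or 3 or without Fam210aHKO replicate 2 (adjusted p = 0.0663, 0.0530 and 0.0839). In all 4 every knockout library was above every control.

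The rest of the thioredoxin and peroxiredoxin system, 21 genes, had 2 higher, 6 lower and 13 not called, with a median log2 fold change of -0.11. With library totals 7 were higher and 3 lower, the median turned to 0.34, and with the replicate block 4 were higher and 6 lower. Over all tested genes 14.0% were higher and 13.5% lower with TMM scaling. These shares were 42.7% and 6.33% with library totals, and 17.8% and 18.0% with the block. Sesn2, a stress-induced sestrin, rose from 9.22, 7.06 and 12.7 CPM to 32.7, 34.4 and 30.6 CPM (1.75 log2 units, SE 0.210, adjusted p = 0.000167). Txnip, whose product binds and inhibits thioredoxin, rose from 78.9, 67.6 and 80.1 CPM to 98.2, 137 and 135 CPM (0.70, SE 0.162, adjusted p = 0.00814). Among the genes that fell were Msrb1, a methionine sulfoxide reductase and selenoprotein, from 346, 253 and 306 CPM to 125, 118 and 152 CPM (-1.20, SE 0.169, adjusted p = 0.000457), and the glutaredoxin gene Glrx, from 86.3, 121 and 76.2 CPM to 38.2, 43.4 and 38.2 CPM (-1.24, SE 0.181, adjusted p = 0.000560). The peroxiredoxin gene Prdx5 fell from 240, 230 and 196 CPM to 136, 119 and 104 CPM (-0.89, SE 0.155, adjusted p = 0.00169). The falls of Msrb1, Glrx and Prdx5 were called with library totals too (adjusted p = 0.00718, 0.00340 and 0.0469).

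The mitochondrial partners of Txnrd2 were named after their values were seen. Txn2, mitochondrial thioredoxin, stood at 171, 146 and 130 CPM in Ctrl and at 160, 184 and 117 CPM in Fam210aHKO, with overlapping groups (log2 fold change 0.05, adjusted p = 0.885). Prdx3, the mitochondrial peroxiredoxin, stood at 129, 147 and 112 CPM and at 160, 199 and 138 CPM, also overlapping (0.36, adjusted p = 0.148). Prdx3 was higher in each same-numbered pair of libraries, and it was called higher with the replicate block (0.35, adjusted p = 0.0307) and with library totals (0.82, adjusted p = 0.00291).

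Of 6 other superoxide and peroxide enzymes 1 rose, 3 fell and 2 did not pass, with a median log2 fold change of -0.39 (0.06 with library totals, when 3 were higher and 3 lower). Over all tested genes 14.0% were higher and 13.5% lower, and 42.7% and 6.33% with library totals. Cat encodes catalase, the peroxisomal enzyme that splits hydrogen peroxide, and fell from 3742, 2314 and 3645 CPM to 1260, 1070 and 1436 CPM (-1.37, SE 0.257, adjusted p = 0.00268). Gpx1, a glutathione peroxidase, fell from 1776, 1448 and 1479 CPM to 675, 724 and 928 CPM (-1.01, SE 0.202, adjusted p = 0.00366). Ccs, the copper chaperone of SOD1, fell from 165, 123 and 138 CPM to 67.5, 76.6 and 74.4 CPM (-0.96, SE 0.150, adjusted p = 0.000882). These 3 were lower with library totals too (adjusted p = 0.0141, 0.0418 and 0.0268), unlike Sod1 and Sod2. Gpx3, the secreted glutathione peroxidase, rose from 10.4, 6.58 and 5.98 CPM to 81.8, 154 and 64.8 CPM (3.71, SE 0.338, adjusted p = 2.94e-05).

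Because both thioredoxin reductases need selenocysteine, 8 genes of selenoprotein synthesis and selenium supply were read as well. Of these 0 rose (0 also at an unadjusted p under 0.05 and by DESeq2) and 2 fell, with a median log2 fold change of -0.24 that turned to 0.21 with library totals, when 3 were higher and 0 lower (0 also at an unadjusted p under 0.05). With the replicate block 3 were lower. Over all tested genes 14.0% were higher and 13.5% lower, and 42.7% and 6.33% with library totals. With the block 18.0% of all tested genes were lower. Sephs2, which makes selenophosphate, fell from 869, 561 and 772 CPM to 441, 398 and 417 CPM (-0.81, SE 0.189, adjusted p = 0.00861; 0.163 with library totals). Sepsecs, which forms selenocysteine on its transfer RNA, fell from 69.2, 63.8 and 82.5 CPM to 52.9, 52.3 and 51.7 CPM (-0.46, SE 0.142, adjusted p = 0.0342). With library totals Sepsecs was not called either (adjusted p = 0.962), so 0 genes of the list were then lower. Sepsecs also lost its call with no filter (0.104) or when any 1 library other than Ctrl replicate 2 was left out (0.0537 to 0.113). In each of the latter fits 1 gene of the list was lower.

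**Figure D5:**
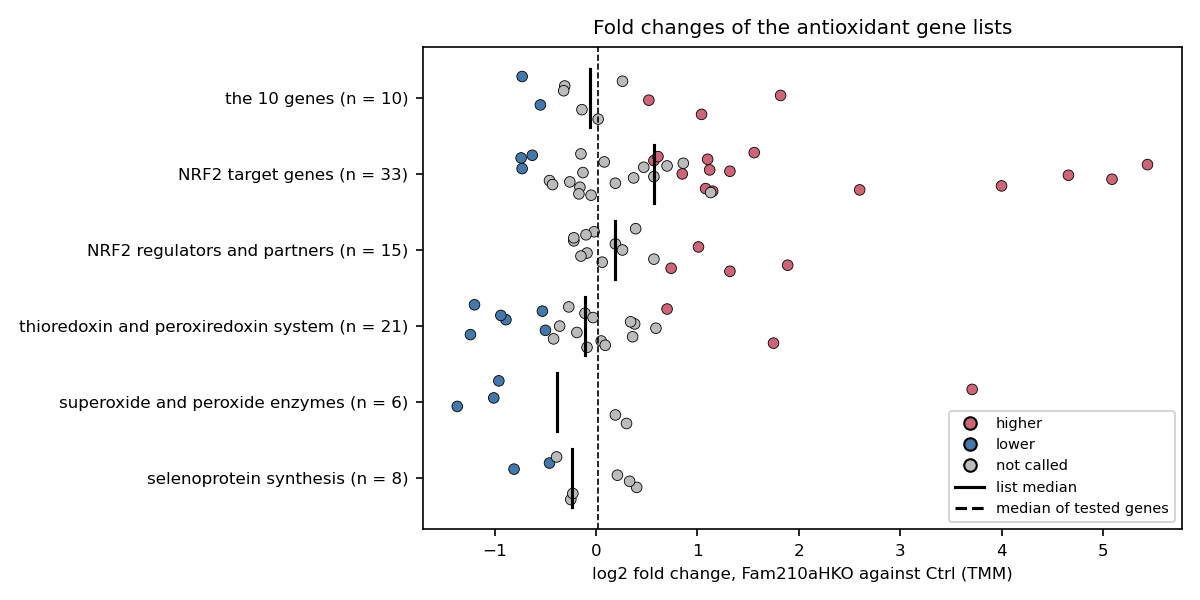
Log2 fold change of Fam210aHKO against Ctrl with TMM scaling (x axis) for every tested gene of the 10 and of the 5 fixed lists (rows), 1 point per gene coloured by call, with the list median as a bar and the median of all tested genes as a dashed line. The NRF2 target genes have a median of 0.57 and reach beyond 5, while the superoxide and peroxide enzymes have a median of -0.39.

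Over the 6 libraries, the 5 genes of at least 10 CPM whose log2 CPM ran most closely with that of Nfe2l2 were Nt5c2, Mosmo, Cd9, Galk2 and Asah1, with Pearson's r from 0.987 to 0.995. These points share 6 libraries and the group difference, and 190 of the 7888 genes compared had an r above 0.9. Cd9 is also in the lipid-associated macrophage list and rose from a mean of 12.7 to 23 CPM (0.86 log2 units, adjusted p = 0.0112), and Nt5c2 rose from 25.3 to 40.4 CPM (0.67, adjusted p = 0.0267). Mosmo, Galk2 and Asah1 were not called with TMM scaling, with log2 fold changes of 0.26, 0.54 and 0.41. For these 5 genes, values with library totals or without single libraries are not given here.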

How the data were processed

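Liver mRNA of 3 Ctrl and 3 Fam210aHKO samples, grouped by title, was sequenced after poly-T enrichment, per the labels. The authors deposited whole-number counts per gene and FPKM values. The submitters' processing notes name mm10 and, without versions, FastQC, Trimmomatic, STAR, featureCounts and DESeq2. Strand setting, treatment of multimapping reads and the library size behind the FPKM were not given in the sources used here.

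Counts were tested in edgeR 4.0.16 (R 4.3.3) with group as the only factor: filterByExpr with a minimum count of 10, TMM factors, two-sided quasi-likelihood F test, Benjamini-Hochberg adjustment over 13706 genes, threshold 0.05. The SE was computed as |log2 fold change| over the square root of F. Alternatives were median-of-ratios, upper-quartile and library-total scaling, DESeq2 1.42.0, no filter, a minimum of 1 CPM in 3 libraries, limma-voom and limma 3.58.1 on log2(FPKM + 1) and log2(FPKM + 0.1), the legacy robust test, each library left out, and a replicate block. The edgeR script was tested on simulated data. Same-numbered libraries had deviations from group means that correlated at 0.245, 0.182 and 0.155 (other pairs from -0.141 to -0.0262). Deviations cancel out within a group, which ties these correlations to each other. A pairing by number is therefore possible but not established. The main fit and the permutation test leave it out, and the replicate block takes it in. The labels do not say what the replicate numbers stand for. The common biological coefficient of variation was 0.196, and a count of 3 was between 0.132 and 0.261 CPM.

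The 10 genes and the lists were chosen with earlier results of these data known. Named genes are the 10, Fam210a, and for each pathway list at most 3 called genes, by p, in its more frequent direction and at most 2 in the opposite one, and the 5 genes closest to Nfe2l2; genes outside this rule are marked in the text. One hepatocyte marker, Tf, had no row under that name.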

Additional observations from a re-analysis of the deposited data

How the results depend on the processing

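Scaling mattered most. With library totals all tested genes called higher numbered 5846 and lower 868, against 1922 and 1852. Of the 10 genes 0 were then lower. The NRF2 target list had 22 higher and 0 lower, its regulators 8 higher, the thioredoxin and peroxiredoxin list 7 higher and 3 lower, the superoxide and peroxide list 3 higher, and the selenoprotein list 3 higher and 0 lower. The log2 fold changes of Keap1, Txn1 and Prdx1, none of them called, reversed to 0.30, 0.14 and 0.14. With no filter 1 selenoprotein gene was lower. The cause was not tested. Txnrd2 changed sign within its error, to -0.02 with both FPKM fits, and between -0.18 and 0.18 with single libraries left out (-0.18 without Ctrl replicate 2, -0.11 without Fam210aHKO replicate 1). With the replicate block 5 NRF2 targets were lower and 4 genes of the thioredoxin list higher, and no call among the 10 changed.

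Leaving out each library in turn, between 1 and 3 of the 10 were called higher (1 without Ctrl replicate 3) and between 1 and 2 lower (1 without Ctrl replicate 1 or Fam210aHKO replicate 1). NRF2 targets lower ranged from 1 to 4 and selenoprotein genes lower from 1 to 2. The 6 pair ratios kept their direction in all alternatives run for them (log2(FPKM + 1), single libraries left out, and sign flips over the 3 pairs of the replicate block, whose smallest p is 0.25). Nqo1 had 68 counts in its lowest library, and 3 libraries per group limit the precision of every value.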
